A study of Mus musculus with 12 samples.

Results

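The transcription factor genes described here were Irf1, Irf2, Irf3, Irf7, Irf8 and Irf9, of the interferon regulatory factor (IRF) family, and Stat2, Stat3 and Stat6, of the STAT family (signal transducers and activators of transcription). The 9 genes were taken by symbol, out of 52962 gene identifiers in the table. RNA-seq was performed on β-cells and non-β-cells of islets from female mice aged 4 or 8 weeks of the NOD strain, in which diabetes arises by autoimmunity. The 4 groups of 3 libraries were therefore the β fraction and the non-β fraction of either age, all of NOD genotype and with no treatment named in the labels. Per the study's methods, islets were cultured overnight, dispersed, and sorted by endogenous fluorescence and CD45 staining. The study states that both fractions were negatively selected for CD45, so low leukocyte marker levels were in part set by the sort. The non-β fraction is thus defined by the sort and not by a single cell type. The study describes 3 pools of 3 mice per group and does not name which pools gave which fraction. The labels name no animals, so the p-values measure the spread between these libraries and not between single mice.

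IRF proteins bind DNA elements that contain repeated GAAA, among them the interferon-stimulated response element (ISRE). STAT proteins are phosphorylated by Janus kinases at cytokine receptors and enter the nucleus as dimers, most of which bind the γ-activated site (GAS), whereas Stat2 acts with Irf9 in the ISGF3 complex at the ISRE. Several of these genes are themselves interferon-inducible, and interferon signaling in islets is a known feature of early autoimmune diabetes.

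Values are CPM, counts-per-million with library sizes adjusted by TMM (trimmed mean of M-values), and a gene was tested where its CPM was above 1 in at least 3 of the 12 libraries, which held for 15598 genes. All 9 genes were tested. Of these, 8 were above 1 CPM in all 12 libraries, whereas Irf8 was above it in 4, so that it was kept only through the group in which it was high. Library totals lay between 13755106 and 27040652 estimated counts. Log2 differences, their standard errors (SE) and adjusted p-values come from limma-voom, with Benjamini-Hochberg adjustment over the 15598 genes.

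The sorted fractions differed in their markers in the direction of the labels. The 10 β-cell markers, among them Ins1, Ins2 and Mafa, summed to 46840 to 81880 CPM in the 4-week β libraries, to 108000 to 113700 CPM in the 8-week β libraries, where 6 of the 10 had risen, and to between 3038 and 6004 CPM in the 6 non-β libraries. The 8 α-cell markers, led by Gcg, summed to 106800 to 136500 CPM in the non-β libraries. In the β fraction the α-cell sum was lower at 8 weeks, at 1609 to 2664 CPM, than at 4 weeks, at 5744 to 9573 CPM, and all 8 markers fell. The 10 acinar and duct markers summed to 908 to 1293 CPM at 4 weeks and 2047 to 2407 CPM at 8 weeks in the β fraction, where 5 rose. In the non-β fraction, where 7 rose, they summed to 598.7 to 834.5 and 2075 to 2534 CPM. Krt7 and Spp1 gave most of these sums. In the β fraction the means of Krt7 were 856.6 and 739.6 CPM and those of Spp1 were 99.2 and 942.8 CPM. In the non-β fraction they were 259.6 and 342.9 CPM for Krt7 and 365.7 and 1583 CPM for Spp1. Spp1 rose in both fractions, and the age changes of Krt7 did not pass. All 9 endothelial and all 9 mesenchymal markers were higher at 8 than at 4 weeks in the non-β fraction, with endothelial sums of 55.3 to 98.1 CPM at 4 weeks and 415.8 to 1113 CPM at 8 weeks, and mesenchymal sums of 107.3 to 308.4 and 696.7 to 1086 CPM. Of these lists, 1 endothelial (Tie1), 2 mesenchymal (Pdgfra and Lum) and 1 duct marker (Cftr) were above 1 CPM in fewer than 3 of the 4-week libraries, so that they passed the filter only with the help of 8-week libraries. Beside these marker counts, 8.59% of all genes tested rose and 9.35% fell with age in β-cells, and 11.6% rose in non-β-cells. Of 25 leukocyte markers, 21 were below 1 CPM in every library. In such bulk samples, fewer cells of a type and less RNA per cell cannot be told apart, and the part of these marker shifts in the age changes described here was not tested.

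The promoters of the 9 genes were read from RefSeq (GRCm38.p6), from 250 bases before to 50 bases after each annotated start, to show where IRF and STAT elements lie in the genes that code for these factors. An ISRE core was searched as GAAANNGAAA and a GAS core as TTCNNNGAA, on both strands. An ISRE core was present in 3.44% of all 32851 promoters of this length and a GAS core in 8.3%. Counted by gene, with a match at any start, the shares were 3.99% and 9.55% of 27025 genes. Of the 9 genes, Irf2 and Stat2 held an ISRE core, and Irf1, Irf2 and Irf8 held a GAS core, as shown here with the core in capitals on the strand of the gene, the plus strand for each.
Irf1, GAS core, chr11:53769914-53769942: acagcctgatTTCCCCGAAatgatgaggc
Irf2, ISRE core, chr8:46739495-46739523: tggggaagtGAAAATGAAAttgacttttc
Irf2, GAS core, chr8:46739511-46739539: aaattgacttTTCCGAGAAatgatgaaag
Irf8, GAS core, chr8:120736177-120736205: caaaagtgatTTCTCGGAAagagagcgct
Irf8, GAS core, chr8:120736195-120736223: aagagagcgcTTCAGAGAAggcggatttg
Stat2, ISRE core on the opposite strand, chr10:128270266-128270295: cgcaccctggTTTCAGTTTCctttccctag

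The first base of the Irf1 core lay at -90 from the RefSeq start, those of the Irf2 cores at -241 and -224, those of the Irf8 cores at -171 and -153, and that of the Stat2 core at -222. The windows of the Irf2 cores overlap one another, as do those of the Irf8 cores. Irf1, Irf8 and Irf9 have 2 annotated starts each, and the Irf1 and Irf8 matches fell in the window of 1 of them. Irf3, Irf7, Irf9, Stat3 and Stat6 had no match to these letters in their windows. A match is a stretch of letters and not a measured binding site.

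Irf1, a transcriptional activator that is induced by interferon γ and drives genes of antigen presentation, lies on the plus strand at chr11:53770014-53778374 (ENSMUSG00000018899; all gene positions are GRCm38). In β-cells Irf1 stood at 40.2, 39.6 and 40.6 CPM at 4 weeks and at 71.9, 75.4 and 69.4 CPM at 8 weeks, with means of 40.1 ± 0.503 and 72.2 ± 2.98 (SD, n = 3). In non-β-cells Irf1 stood at 64.8, 82.4 and 76.4 CPM at 4 weeks and at 424.3, 437.9 and 459.7 CPM at 8 weeks, with means of 74.5 ± 8.99 and 440.6 ± 17.9 CPM (SD, n = 3). The ages did not overlap in either fraction, and the 8-week non-β libraries stood far above the other 9. Irf1 rose with age in β-cells, by a log2 change of 0.85 (SE 0.11, adjusted p = 0.000169). In non-β-cells it rose by a log2 change of 2.57 (SE 0.10, adjusted p = 2.41e-08), a 5.91-fold ratio of mean CPM. The log2 change was smaller in β-cells by 1.73, as the age by fraction interaction of -1.73 gives it (95% interval -2.04 to -1.41, adjusted p = 2.99e-05). Irf1 was lower in the β than in the non-β fraction at both ages, with log2 differences of -0.88 at 4 weeks (adjusted p = 2.33e-05) and -2.61 at 8 weeks (adjusted p = 6.21e-10). These calls held under every alternative setting and with each library left out.

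Irf2, which binds the same elements and is known as an antagonist of Irf1, lies at chr8:46739732-46847458 (ENSMUSG00000031627). In β-cells Irf2 stood at 30.3, 32.4 and 28.9 CPM at 4 weeks and at 31.2, 32.2 and 34.8 CPM at 8 weeks. The non-β-cell levels were 46.9, 42.6 and 40.7 CPM at 4 weeks and 56.7, 48.6 and 51.1 CPM at 8 weeks. All 6 non-β libraries thus lay above all 6 β libraries. Irf2 was lower in β-cells, by log2 differences of -0.51 at 4 weeks (adjusted p = 0.00203) and -0.67 at 8 weeks (adjusted p = 0.000187). Its log2 age changes, 0.10 in β-cells (adjusted p = 0.584) as against 0.27 in non-β-cells (adjusted p = 0.109), did not pass the threshold, although the non-β ages did not overlap. Per kilobase of exon, mean levels in 4-week β-cells were 10.1 CPM for Irf1 and 4.13 CPM for Irf2, whereas in 8-week non-β-cells they were 110.8 and 7.05 CPM.

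**Figure D1:**
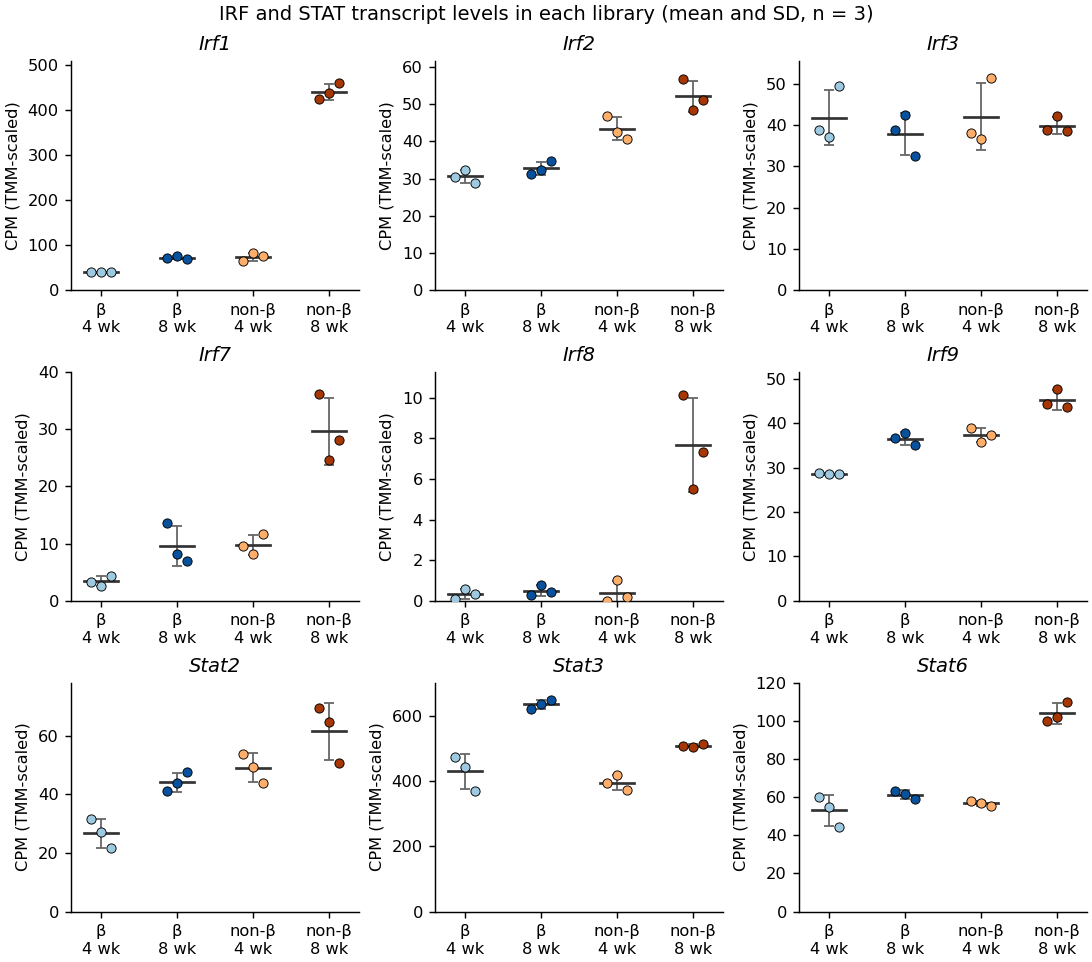
TMM-scaled CPM on a linear axis from 0 for each of the 9 genes, with a point for each of the 3 libraries of the 4 groups, the mean as a bar and the SD as whiskers. The 8-week non-β libraries lie above all others for Irf1 (424.3 to 459.7 CPM), Irf8 (5.53 to 10.1 CPM) and Stat6 (99.99 to 110.2 CPM). They do so also for Irf2 (48.6 to 56.7 CPM), Irf7 (24.7 to 36.1 CPM) and Irf9 (43.6 to 47.7 CPM). Stat3 is highest in 8-week β-cells and Irf3 overlaps in all groups.

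Stat2 and Irf9 are subunits of ISGF3, the complex that carries the type I interferon signal to the ISRE. Stat2 (ENSMUSG00000040033, chr10:128270559-128292849) was at 31.5, 27.1 and 21.6 CPM in 4-week β-cells and at 41.0, 43.8 and 47.5 CPM in 8-week β-cells. In non-β-cells Stat2 was at 53.9, 49.3 and 44.0 CPM at 4 weeks and at 69.3, 64.5 and 50.6 CPM at 8 weeks. The ages separated in β-cells and overlapped in non-β-cells. Stat2 rose in β-cells by 0.74 on the log2 scale (SE 0.16, adjusted p = 0.00674), whereas its change in non-β-cells was 0.31 (SE 0.15, adjusted p = 0.188). The difference between those changes was 0.43, with a 95% interval from -0.05 to 0.90 and an adjusted p of 0.318, so a different response in the fractions was not shown. Stat2 was lower in β-cells, by log2 differences of -0.89 at 4 weeks (adjusted p = 0.000547) and -0.47 at 8 weeks (adjusted p = 0.0195). The 8-week call was lost without β replicate 1 or 2 or non-β replicate 1 or 2, with adjusted p-values up to 0.0985.

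Irf9 (ENSMUSG00000002325, chr14:55603571-55610030), the DNA-binding subunit, varied little between replicates. It was at 28.9, 28.6 and 28.5 CPM in 4-week β-cells and at 36.6, 37.8 and 35.1 CPM in 8-week β-cells. In non-β-cells Irf9 was at 38.8, 35.8 and 37.3 CPM at 4 weeks and at 44.2, 47.7 and 43.6 CPM at 8 weeks. The ages separated in both fractions, and the 8-week β libraries overlapped with the 4-week non-β libraries. Irf9 rose in β-cells by a log2 change of 0.35 (SE 0.10, adjusted p = 0.0243), a call that was lost with no filter on low counts (adjusted p = 0.0812) and when any of 5 of the 6 β libraries was left out (all but 4-week replicate 3), with adjusted p-values up to 0.0903. The non-β log2 change of 0.27 did not pass (SE 0.09, adjusted p = 0.0702), although it did so in DESeq2 (adjusted p = 0.0157) and with sample quality weights (adjusted p = 0.0329). Irf9 was lower in β-cells by log2 differences of -0.38 at 4 weeks (adjusted p = 0.00569) and -0.30 at 8 weeks (adjusted p = 0.0165). The 8-week call was lost with no filter (adjusted p = 0.0534) and without β replicate 3 or non-β replicate 2 (up to 0.0854). Part of the Irf9 locus lies in the same-strand gene Rnf31, so the division of reads between them is uncertain.

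Irf3 and Irf7 are the factors that are phosphorylated after nucleic acid sensing and switch on type I interferon genes. Irf3, which is made constitutively, is encoded at chr7:44997648-45002848 (ENSMUSG00000003184). Its level was 38.9, 37.1 and 49.5 CPM in 4-week β-cells, 38.8, 42.6 and 32.5 CPM in 8-week β-cells, 38.1, 36.8 and 51.5 CPM in 4-week non-β-cells, and 38.7, 42.3 and 38.6 CPM in 8-week non-β-cells. The ranges of all 4 groups overlapped, and replicate 3 was the highest library of both 4-week groups. The log2 age changes of Irf3 were -0.14 in β-cells (95% interval -0.47 to 0.20, adjusted p = 0.588) and -0.06 in non-β-cells (95% interval -0.41 to 0.28, adjusted p = 0.84). The fraction differences of Irf3 were also within its spread, at a log2 difference of -0.07 at 8 weeks (adjusted p = 0.728) and an adjusted p of 0.997 at 4 weeks.

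Irf7, which is inducible by interferon and amplifies the response, is encoded on the minus strand at chr7:141262706-141266481 (ENSMUSG00000025498). It was at 3.36, 2.58 and 4.404 CPM in 4-week β-cells and at 13.6, 8.25 and 7.02 CPM in 8-week β-cells. In non-β-cells Irf7 was at 9.53, 8.12 and 11.6 CPM at 4 weeks and at 36.1, 24.7 and 28.2 CPM at 8 weeks. The ages separated in both fractions, and replicate 1 was the highest library of both 8-week groups. Irf7 rose by a log2 change of 1.45 in β-cells (SE 0.35, adjusted p = 0.0136) and of 1.63 in non-β-cells (SE 0.23, adjusted p = 0.000316). The β call was lost without 4-week replicate 2 (adjusted p = 0.0699). The difference between these changes was -0.18, with a wide 95% interval from -1.09 to 0.74 (adjusted p = 0.876). Irf7 was lower in β-cells, by log2 differences of -1.53 at 4 weeks (adjusted p = 0.00336) and -1.71 at 8 weeks (adjusted p = 4.68e-05).

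Irf8, a lineage factor of myeloid, dendritic and B cells that interferon γ also induces, is encoded at chr8:120736358-120756694 (ENSMUSG00000041515), where the same-strand gene model Gm20388 overlaps it. Irf8 was near the limit of detection in 3 of the 4 groups. Its estimated counts were 2, 15 and 7 in the 4-week β libraries, 6, 21 and 11 in the 8-week β libraries and 0, 21 and 4 in the 4-week non-β libraries, against 234, 74 and 143 in the 8-week non-β libraries. On the CPM scale the last group stood at 10.1, 5.53 and 7.35 and the other 9 libraries between 0 and 1.03. The library without an Irf8 count allows up to 0.115 CPM (3 counts; counting error only). Irf8 rose with age in non-β-cells, from a mean of 0.408 ± 0.545 to 7.67 ± 2.32 CPM (SD, n = 3), an 18.8-fold ratio of mean CPM. The fitted log2 change was larger, at 5.75 (SE 1.11, adjusted p = 0.00276), and rests on counts at or near 0 in the 4-week group. It ran from 3.97 without 4-week replicate 1 to 6.98 without 4-week replicate 2. Irf8 was in the test only through the group in which it was high. Its calls are therefore descriptions, as is the passing of the threshold with each library left out. In β-cells the log2 change of Irf8 was 0.66 with a 95% interval from -1.77 to 3.08 (adjusted p = 0.73), which leaves its size undetermined at this depth. At 8 weeks Irf8 was lower in β-cells by a log2 difference of -3.98 (SE 0.73, adjusted p = 0.000611), a 15.2-fold ratio of mean CPM, whereas at 4 weeks the fractions overlapped (adjusted p = 0.531). The interaction of -5.09 did not pass in limma-voom (95% interval -8.50 to -1.69, adjusted p = 0.088) but did so in DESeq2 (-3.72, adjusted p = 0.0391) and with sample quality weights (-5.77, adjusted p = 0.0319).

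Markers of other cell types were set beside Irf8, since it is best known from leukocytes. The 25 leukocyte markers summed to 58.0 to 63.6 CPM in β-cells at 4 weeks and 75.3 to 82.2 CPM at 8 weeks, and to 32.0 to 44.8 CPM and 37.8 to 59.0 CPM in non-β-cells. In β-cells most of this sum was Cd68, a macrophage and lysosomal marker, at means of 48.8 and 69.6 CPM. In non-β-cells Cd68 rose from 9.15 ± 1.54 to 16.5 ± 3.40 CPM (SD, n = 3; log2 change 0.81, adjusted p = 0.0106), and most of the sum was C1qa, a complement gene of macrophages, at means of 26.5 and 29.7 CPM (log2 change 0.13, adjusted p = 0.715). The sums of the non-β ages overlapped. In the 8-week non-β libraries they were 37.8, 51.25 and 59.0 CPM in replicates 1, 2 and 3. In replicate 1, C1qa gave 22.1 CPM and Cd68 gave 12.6 CPM of the sum. The leukocyte sums thus rested mostly on Cd68 and C1qa and not on the list as a whole. Ptprc encodes CD45, against which both fractions were sorted. Its non-β means were 0.454 ± 0.408 CPM at 4 weeks and 0.0433 ± 0.075 CPM at 8 weeks (SD, n = 3). Spi1, a myeloid factor that partners Irf8, was at 0 in 11 of the 12 libraries and at 0.103 CPM in 8-week non-β replicate 3. Nkg7, a cytotoxic lymphocyte marker, was at 0 in every library. C1qb, listed beside C1qa, had non-β means of 0 CPM at 4 weeks and 0.034 CPM at 8 weeks. Adgre1, listed beside Cd68, had β-cell means of 0 and 0.040 CPM. These genes were picked outside the ranking used to name genes, and other low markers moved either way with age in non-β-cells. Mean levels went from 0 to 0.237 CPM for Cd3e and from 0 to 0.12 CPM for Itgax. They went from 0.3 to 0.16 CPM for Lyz2 and from 0.115 to 0.0249 CPM for Itgam. The endothelial sums of the 8-week non-β libraries were 1113, 415.8 and 607.2 CPM in replicates 1, 2 and 3, and the mesenchymal sums were 696.7, 906.8 and 1086 CPM. The part of leukocyte, endothelial or mesenchymal RNA in the Irf8 level was not tested.

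**Figure D2:**
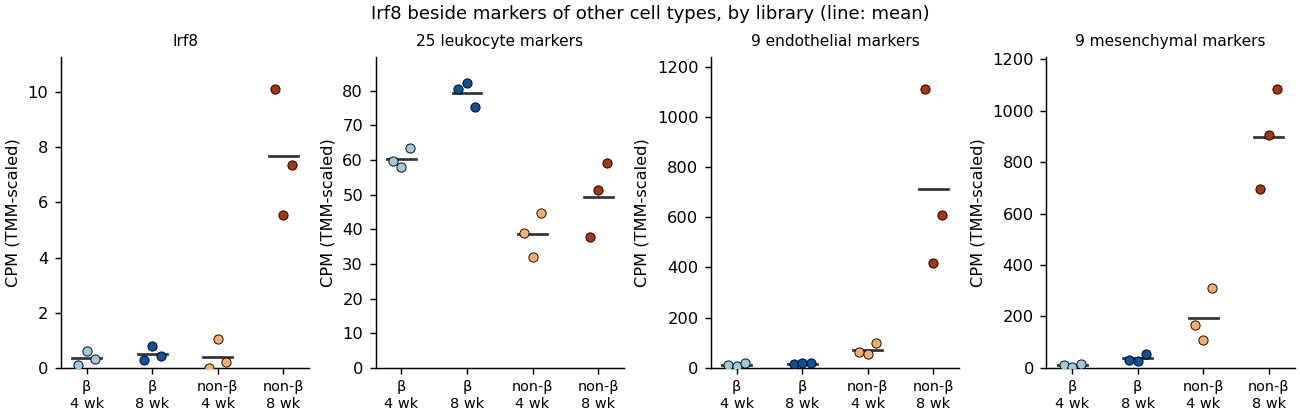
TMM-scaled CPM of Irf8 and summed CPM of the leukocyte, endothelial and mesenchymal markers on linear axes from 0, with a point for each library and a bar at each group mean. Irf8, the endothelial sum (415.8 to 1113 CPM) and the mesenchymal sum (696.7 to 1086 CPM) are highest in 8-week non-β-cells. The leukocyte sum is highest in 8-week β-cells (75.3 to 82.2 CPM), where most of it is Cd68 (mean 69.6 CPM).

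Stat3, which carries the signals of the interleukin-6 family of cytokines and drives acute-phase genes, is encoded on the minus strand at chr11:100885098-100939540 (ENSMUSG00000004040). It was the most abundant of the 9 genes per kilobase of exon in 3 groups, at 45.0 CPM per kilobase in 4-week β-cells, 66.6 in 8-week β-cells and 41.4 in 4-week non-β-cells, and it came after Irf1 in 8-week non-β-cells, at 53.2. In β-cells Stat3 was at 474.4, 444.0 and 368.4 CPM at 4 weeks and at 621.1, 634.8 and 647.2 CPM at 8 weeks. In non-β-cells Stat3 was at 394.7, 418.3 and 371.1 CPM at 4 weeks and at 505.4, 504.2 and 512.0 CPM at 8 weeks. The ages separated in both fractions, and the 8-week β libraries were the highest of all 12. Stat3 rose in β-cells by 0.57 on the log2 scale (SE 0.10, adjusted p = 0.00204), and likewise in non-β-cells by 0.36 (SE 0.10, adjusted p = 0.0258). The non-β call was lost when any of the 6 non-β libraries was left out (adjusted p-values up to 0.109), when only the non-β groups were fitted (adjusted p = 0.0798) and when libraries were scaled by total counts (adjusted p = 0.0727). The difference between the changes was 0.21, with a 95% interval from -0.10 to 0.52 (adjusted p = 0.483). Stat3 was the member that was higher in β-cells at 8 weeks, by a log2 difference of 0.32 (SE 0.10, adjusted p = 0.0185), a call lost without any one β library or non-β replicate 2 (up to 0.0557). At 4 weeks the fractions overlapped (log2 difference 0.11, adjusted p = 0.376), and the call was made with sample quality weights (0.21, adjusted p = 0.0165) and without β replicate 3 (adjusted p = 0.0435).

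Stat6, the mediator of interleukin-4 and interleukin-13, is encoded at chr10:127642986-127660957 (ENSMUSG00000002147). In β-cells Stat6 was at 60.4, 54.8 and 44.4 CPM at 4 weeks and at 63.4, 61.8 and 59.1 CPM at 8 weeks. In non-β-cells Stat6 was at 58.1, 56.8 and 55.5 CPM at 4 weeks and at 99.99, 102.3 and 110.2 CPM at 8 weeks. The 8-week non-β libraries lay above the other 9, whose groups lay close together, and the ages overlapped in β-cells. Stat6 rose in non-β-cells by 0.87 on the log2 scale (SE 0.11, adjusted p = 0.000133), whereas its log2 change in β-cells was 0.22 (SE 0.11, adjusted p = 0.208). The interaction was -0.65 (95% interval -0.996 to -0.31, adjusted p = 0.031). That call was lost with total-count scaling (adjusted p = 0.0536) and in 9 of the 12 fits that left out a library, with adjusted p-values up to 0.105. It was kept without 4-week β replicate 3, 4-week non-β replicate 3 or 8-week non-β replicate 1. The fractions overlapped at 4 weeks (log2 difference -0.11, adjusted p = 0.456), and at 8 weeks Stat6 was lower in β-cells by a log2 difference of -0.76 (adjusted p = 8.86e-05).

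The counts over the 9 genes are descriptions, since the genes were picked with results of these data known. Over the 9, 5 rose with age in β-cells (Irf1, Irf7, Irf9, Stat2 and Stat3), against 8.59% of all 15598 genes tested that rose. The median log2 change of the 9 was 0.57, beside 0.02 for all genes tested. In non-β-cells 5 also rose (Irf1, Irf7, Irf8, Stat3 and Stat6), where 11.6% of all genes rose, and the median was 0.36 beside 0.01. Of these, Irf8 had passed the filter only through the group in which it was high. No member was called lower with age in either fraction. At 4 weeks 5 members were lower in the β than in the non-β fraction (Irf1, Irf2, Irf7, Irf9 and Stat2), beside 23.7% of all genes tested. At 8 weeks 7 were lower, Irf8 among them, beside 25.6% of all genes, and Stat3 was higher, beside 23.6%. The age change differed between fractions for Irf1 and Stat6, both with the larger rise in non-β-cells, a call made for 3.33% of all genes tested. The β age count fell to 3 without 4-week β replicate 2, the 8-week fraction count of 8 to 5 without non-β replicate 2, and the interaction count of 2 to Irf1 alone where the Stat6 call was lost. The age and fraction comparisons use the same 12 libraries, so their counts are not independent of one another.

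**Figure D3:**
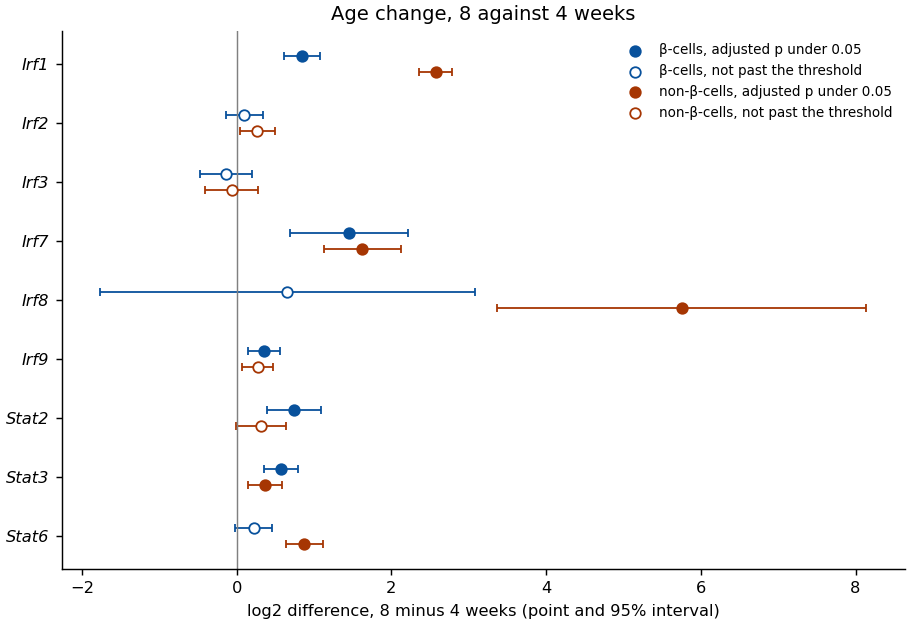
Log2 difference between 8 and 4 weeks for each gene in β-cells and non-β-cells, as a point with its 95% interval from limma-voom, filled where the adjusted p was under 0.05. Irf1 rose by 0.85 and 2.57 with intervals that do not meet, whereas those of Irf7 (1.45 and 1.63) lie over each other and that of Irf8 in β-cells runs from -1.77 to 3.08.

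**Figure D4:**
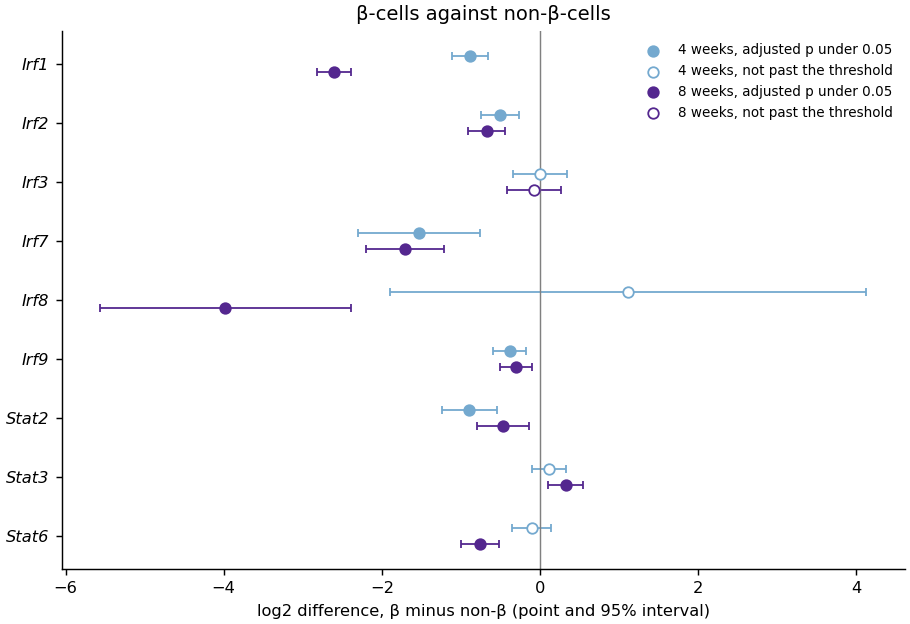
Log2 difference of β-cells minus non-β-cells for each gene at 4 and 8 weeks, as a point with its 95% interval from limma-voom, filled where the adjusted p was under 0.05. Values left of 0 are lower in β-cells, as for Irf1 (-0.88 and -2.61), and Stat3 is the filled point right of 0, at 0.32 at 8 weeks.

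The order of the groups fell into a few patterns, apart from Irf3, whose groups all overlapped. For Irf1, Irf7 and Irf9, 4-week β-cells were lowest and 8-week non-β-cells highest, with ranges apart from the rest, and 8-week β-cells overlapped with 4-week non-β-cells in between. Stat2 had the same order, but its upper 3 groups overlapped with their neighbours. For Irf2 the β groups overlapped with each other below the non-β groups. For Irf8 and Stat6 8-week non-β-cells also stood apart at the top, as they did for Irf1, Irf2, Irf7 and Irf9. The 4-week groups of Irf8 and Stat6 overlapped at the bottom. Stat3 had its own order, with the 4-week groups overlapping at the bottom, then 8-week non-β-cells and then 8-week β-cells.

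For each gene the tested genes most alike in log2 CPM over the 12 libraries were listed as a description. The libraries fall into the same 4 groups for every gene, so these points are not independent. Those of Irf1 were Slmapos2 and Nfkbia, an NF-κB inhibitor (Pearson r = 0.99 each), and Gal, which encodes galanin (r = 0.986). Gal also led for Stat6 (r = 0.962), followed by Ets2 and Cilp. For Irf8 they were Hcls1 (r = 0.947), a gene of hematopoietic cells, Scarf1 (r = 0.945), a scavenger receptor of endothelial cells, and Kcnn4 (r = 0.937). Those of Irf7 were Nes, which encodes nestin (r = 0.974), Fblim1 and Gm45805. Those of Irf9 were 4930539E08Rik (r = 0.976), Slc22a17 and the acute-phase gene Fgb (r = 0.972). Stat3 was most like Gys1, muscle-type glycogen synthase (r = 0.979), Cpt1a and Shc1, and Stat2 most like C130021I20Rik (r = 0.973), Thrb and Gm37233. Irf2 was most like Shank2 (r = 0.992), Cyyr1 and Magi3, and Irf3 most like Nup85 (r = 0.919), Gm7600 and Rbm42.

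The genes around these factors were described by lists set by role. Of all 15598 genes tested, 8.59% rose and 9.35% fell in β-cells, and 11.6% rose and 4.8% fell in non-β-cells. The counts of each list below are to be read beside these shares. Where a listed gene was above 1 CPM in fewer than 3 of the 4-week libraries, it passed the filter only with 8-week libraries, of either fraction. The filter thus favoured a rise with age in at least 1 fraction. The counts and medians are therefore descriptions and are given also without such genes, a choice made after seeing the data. Of 23 interferon and cytokine ligands, 19 were at 0 in every library, Ifnb1 and Ifng among them, which allows up to 0.113 to 0.224 CPM per library (3 counts; counting error only). Lif and Il6, ligands that act through Stat3, were the ligands above the filter. Lif rose from 2.46 ± 0.803 to 7.17 ± 0.777 CPM (SD, n = 3) in β-cells (log2 change 1.57, SE 0.35, adjusted p = 0.00861) and from 9.63 ± 2.43 to 90.6 ± 14.1 CPM (SD, n = 3) in non-β-cells (log2 change 3.27, SE 0.19, adjusted p = 3.11e-07). Its log2 change was smaller in β-cells, with an interaction of -1.70 (adjusted p = 0.0269). Il6, named after its values were seen, rose in non-β-cells from 3.54 ± 2.09 to 34.2 ± 12.0 CPM (SD, n = 3; log2 change 3.43, adjusted p = 0.000411), and its β-cell means were 0.083 and 1.23 CPM (adjusted p = 0.356).

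All 16 receptors and Janus kinases were tested. In β-cells 2 rose, beside 8.59% of all genes tested, and none was called lower. In non-β-cells 7 rose, beside 11.6% of all genes. The median log2 changes were 0.04 and 0.28. Jak3, a Janus kinase, rose in β-cells by a log2 change of 1.49 and in the non-β fraction by 1.38 (adjusted p = 4.56e-05 and 4.28e-05), and Il13ra1, a receptor chain upstream of Stat6, by 0.92 and 1.35 (adjusted p = 0.00114 and 7.87e-05). Il4ra, the shared receptor chain for interleukin-4 and interleukin-13, stood at 13.5 ± 3.45 and 18.0 ± 2.21 CPM in β-cells and rose from 17.3 ± 5.38 to 57.4 ± 2.24 CPM (SD, n = 3) in non-β-cells. Its interaction was -1.34 (adjusted p = 0.0185), whereas that of Il13ra1, -0.43, did not pass (adjusted p = 0.314). Of the 16 genes, 3 had a called interaction, all negative, beside 3.33% of all genes tested. The other 13 did not pass. Ifngr1, a chain of the interferon γ receptor, rose in non-β-cells by 0.54 (adjusted p = 0.00689) with a β-cell change of -0.27 (adjusted p = 0.124) and an interaction of -0.80 (adjusted p = 0.0123).

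Of the 16 tested sensors and kinases that act upstream of Irf3 and Irf7, 6 rose and 1 fell in β-cells, where 9.35% of all genes fell, and 5 rose in non-β-cells. The median log2 changes were 0.20 and 0.56. Without Cgas and Tmem173, which passed only with 8-week libraries, 6 of 14 rose and 1 fell in β-cells and 4 rose in non-β-cells, with medians of 0.20 and 0.46. Ikbke, a kinase of Irf3 and Irf7, rose in β-cells by 1.34 and in the non-β fraction by 0.92 (adjusted p = 0.000368 and 0.00232), and Ddx58, which encodes the RNA sensor RIG-I, by 0.99 and 1.17 (adjusted p = 0.00173 and 0.000385). Ifih1, which encodes the RNA sensor MDA5, rose in β-cells by 1.27 (adjusted p = 0.0121) and had a non-β change of 0.53 (adjusted p = 0.106). Irak4 rose in β-cells by 0.83 (adjusted p = 0.0296) and had a non-β change of 0.72 (adjusted p = 0.0616).

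All 16 feedback inhibitors and phosphatases were tested, of which 4 rose in β-cells, and 3 rose and 1 fell in non-β-cells, where 4.8% of all genes fell. Socs3, a Stat3-induced inhibitor of cytokine receptors, rose from 41.2 ± 5.22 to 117.7 ± 7.56 CPM in β-cells and from 166.0 ± 10.9 to 255.4 ± 50.5 CPM in non-β-cells (SD, n = 3). Its log2 change of 1.52 in β-cells exceeded that of 0.60 in non-β-cells by an interaction of 0.91 (adjusted p = 0.0194). Cish, an inhibitor of the same family, had an interaction of the opposite sign, with a log2 change of -0.47 in β-cells (adjusted p = 0.14), a rise of 1.04 in non-β-cells (adjusted p = 0.00101) and an interaction of -1.51 (adjusted p = 0.00554). Usp18, which inhibits the type I interferon receptor, and Irf2bpl rose in β-cells by 1.00 and 0.62 (adjusted p = 0.00568 and 0.00486), and their non-β changes of 0.45 and 0.11 did not pass (adjusted p = 0.196 and 0.6).

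Of 21 genes with ISREs, the elements that ISGF3 binds, 8 rose and 1 fell in β-cells and 12 rose in non-β-cells, with median log2 changes of 0.71 and 1.49. Without Ifit2, Isg15, Ifi44, Zbp1 and Oas2, which passed only with 8-week libraries, 4 of 16 rose and 1 fell in β-cells and 7 rose in non-β-cells, with medians of 0.54 and 1.34. Parp14 rose in β-cells by 0.99 and in the non-β fraction by 1.30 (adjusted p = 0.00318 and 0.00017). Ifit1, a sensor of viral RNA, had a log2 change of 0.20 in β-cells (adjusted p = 0.532), whereas it rose in non-β-cells by 1.39 (adjusted p = 0.000383), with an interaction of -1.19 (adjusted p = 0.0293). Rsad2, which encodes viperin, rose in non-β-cells by 2.08 (adjusted p = 0.013), with a β-cell change of 0.55 (adjusted p = 0.597). In β-cells Rsad2 was at 3.92, 4.68 and 4.31 CPM at 4 weeks and at 19.9, 4.79 and 3.13 CPM at 8 weeks. Its 8-week β level thus differed widely between libraries. Eif2ak2, which encodes the kinase PKR, rose in β-cells by 0.71 (adjusted p = 0.0198), with a non-β change of 0.54 (adjusted p = 0.0931).

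Of 20 genes of the interferon γ and Irf1 response, 15 were tested, of which 10 rose in β-cells and all 15 in non-β-cells, with median log2 changes of 1.37 and 1.84. Without Gbp3, Cxcl9, Nos2 and Casp4, which passed only with 8-week libraries, 8 of 11 rose in β-cells and all 11 in non-β-cells, with medians of 0.78 and 1.07. Cxcl10, a T-cell chemokine, was at 4.42 ± 0.629 and 6.97 ± 1.74 CPM in β-cells (log2 change 0.62, adjusted p = 0.102) and rose from 5.90 ± 0.616 to 68.0 ± 7.75 CPM in non-β-cells (log2 change 3.52, adjusted p = 1.97e-07; SD, n = 3). Its interaction was -2.90 (adjusted p = 0.000178). Of the 15 genes tested, 2 had a called interaction, both negative as for Irf1, beside 3.33% of all genes tested. The other 13 did not pass. B2m, the light chain of MHC class I, rose in β-cells by 1.47 and in the non-β fraction by 2.07 (adjusted p = 2.48e-05 and 1.11e-06), and its interaction of -0.60 did not pass (adjusted p = 0.121). Nlrc5, the class I transactivator, rose by 1.86 and 0.85 (adjusted p = 0.00177 and 0.0165), and the immunoproteasome subunit gene Psmb9 by 0.78 and 1.84 (adjusted p = 0.0217 and 0.000295). The interactions of Nlrc5 and Psmb9, 1.00 and -1.06, had opposite signs and did not pass (adjusted p = 0.179 and 0.0961).

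Of 17 acute-phase and other Stat3 targets, 15 were tested, of which 9 rose in the β fraction and 13 in the non-β fraction, with median log2 changes of 1.76 and 1.82. Without Fga, which passed only with 8-week libraries, 8 and 12 of 14 rose, with medians of 1.64 and 1.57. Lcn2, which encodes lipocalin-2, rose from 4.94 ± 2.59 to 98.8 ± 1.95 CPM in β-cells and from 3.51 ± 1.51 to 150.4 ± 22.4 CPM in non-β-cells (SD, n = 3), by log2 changes of 4.43 and 5.54 (adjusted p = 9.7e-07 and 4.2e-07). The fibrinogen genes Fgb and Fgg rose by 3.22 and 2.54 in β-cells (adjusted p = 4.95e-05 and 5.49e-08) and by 2.15 and 1.82 in the non-β fraction (adjusted p = 3.68e-06 and 3.03e-06). The change of Fgg was larger in β-cells, with an interaction of 0.72 (adjusted p = 0.0421). Cebpd, an acute-phase transcription factor, rose by 2.17 and 1.33 (adjusted p = 1.65e-05 and 0.000415).

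Of 10 Stat6 targets, 4 were tested and 4 others were at 0 in every library. In β-cells 2 fell and none rose, and in non-β-cells 2 rose and 1 fell. Of these, Ccl11 passed the filter only through the 8-week non-β libraries, where it rose, and Fcer2a only with 4-week libraries, with a fall in β-cells, so that 1 of 2 fell in β-cells and 1 rose and 1 fell in non-β-cells without them. Pparg, the nuclear receptor of adipogenesis, fell by 0.67 on the log2 scale in β-cells (adjusted p = 0.00329) and by 1.57 in non-β-cells (adjusted p = 0.00209). Arg1, arginase, rose in non-β-cells by 0.88 (adjusted p = 0.00998), with a β-cell change of 0.79 (adjusted p = 0.348). The other IRF and STAT genes of the table numbered 7, of which 5 were tested. Of these 1 rose and 1 fell in β-cells and 1 rose in non-β-cells.

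**Figure D5:**
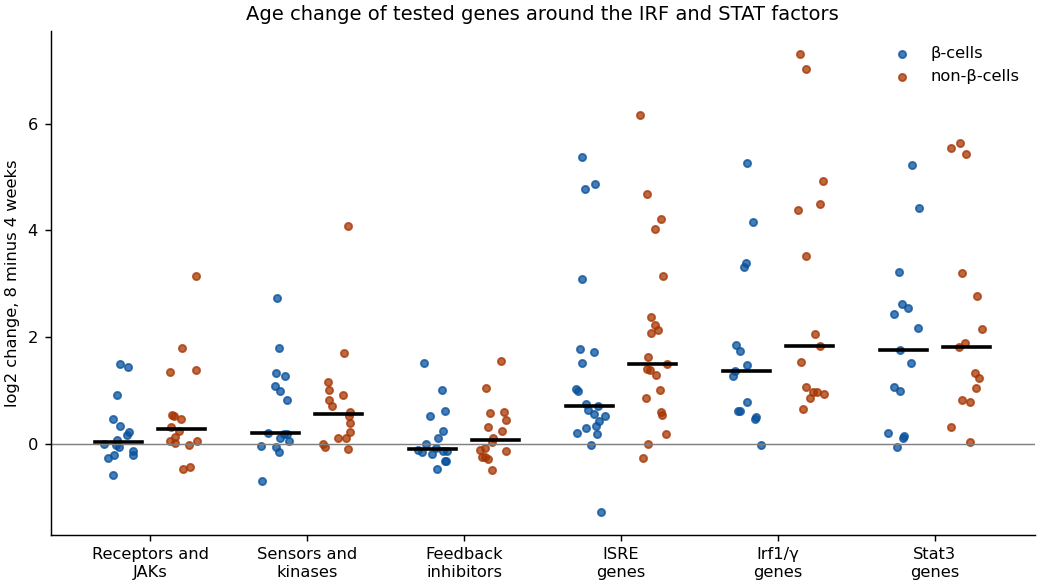
Log2 change from 4 to 8 weeks of the tested genes of 6 lists, with a point for each gene in β-cells and non-β-cells, spread sideways for legibility, and a bar at each median. The medians of the receptor, sensor and inhibitor lists lie between -0.09 and 0.56, and those of the ISRE, Irf1 and Stat3 lists between 0.71 and 1.84. These include genes that passed the filter only with 8-week libraries, of either fraction, which favours a rise with age. Without them the β-cell and non-β-cell medians are 0.20 and 0.46 (sensor), 0.54 and 1.34 (ISRE), 0.78 and 1.07 (Irf1), and 1.64 and 1.57 (Stat3).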

How the data were processed

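According to the methods, single-end reads were trimmed by the authors in fastp, quantified against Ensembl mouse transcripts (GRCm38) in kallisto, and added up per gene in tximport. The library kit was strand-specific; whether kallisto used strand is not given in the sources used here, and Irf1, Irf2, Irf3, Irf7, Stat3 and Stat6 overlap a gene on the opposite strand. The authors deposited estimated counts per gene, unscaled and unfiltered, of which 14% to 19.3% per library were not whole numbers. Counts were rounded, scaled by TMM and tested with limma-voom (limma 3.58.1, edgeR 4.0.16, R 4.3.3; two-sided) in a model of all 12 libraries with 4 group means, following the filter and test of the study's methods, at an adjusted p under 0.05. Intervals are 95%. The interaction is the β minus the non-β age change. Levels per kilobase divide CPM by the union of exons in GENCODE M21.

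Groups were taken from the labels. Replicates of a group differed by more than counting noise, so none was treated as a repeat deposit of another. Alternatives were edgeR quasi-likelihood, DESeq2 1.42.0, other scalings and filters, sample quality weights, only the groups compared, a replicate block, removal of hormone and mitochondrial genes, removal of both 4-week libraries numbered 3, and removal of each library. The 9 genes and the lists were chosen with earlier results of these data known. From each list at most 4 genes past the threshold in an age comparison, with a mean log2 CPM (prior count 2) of at least 3 and the largest changes, are named; the other IRF and STAT genes are given by counts.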

Additional observations from a re-analysis of the deposited data

Results flagged for a closer look

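The age change of Irf1 differed between the fractions. From 4 to 8 weeks it rose from 40.1 ± 0.503 to 72.2 ± 2.98 CPM in β-cells and from 74.5 ± 8.99 to 440.6 ± 17.9 CPM in non-β-cells (SD, n = 3). The interaction in limma-voom was -1.73 on the log2 scale (SE 0.15, adjusted p = 2.99e-05), with every 8-week library above every 4-week library of its fraction, and it lay between -1.79 and -1.62 with each library left out.

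The age change of Stat6 also differed, from 53.2 ± 8.12 to 61.4 ± 2.18 CPM in β-cells and from 56.8 ± 1.28 to 104.1 ± 5.34 CPM in non-β-cells (SD, n = 3). Its interaction was -0.65 on the log2 scale (SE 0.16, adjusted p = 0.031 in limma-voom), and it lay between -0.78 and -0.57 with each library left out, where adjusted p-values reached 0.105.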

How the results depend on the processing

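With 3 libraries per group, calls near the threshold depended on single libraries. Of 484 results recomputed under other settings, 460 kept their direction and side of the threshold, 6 lost their call, 5 gained one and 13 changed sign; with a library left out these were 280, 31, 1 and 12 of 324. The number of the 9 genes called was 5 for age in β-cells (4 to 5 under other settings and 3 to 5 with a library left out), 5 for age in non-β-cells (4 to 6, and 4 to 4), 5 for the fractions at 4 weeks (5 to 6, and 5 to 6), 8 at 8 weeks (7 to 8, and 5 to 8) and 2 for the interaction (1 to 3, and 1 to 2), with Irf8 as the third in DESeq2 and with quality weights. With total counts only, the interaction count was 1. The cause of these moves was not tested.

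Every result that changed sign was uncalled in each setting. For Irf3 in non-β-cells with age, the log2 change became 0.055 with sample quality weights and 0.088 without both 4-week samples numbered 3, and lay between -0.18 and 0.091 with a library left out. The 4-week Irf3 fraction difference became 0.0078 with a minimum of 10 counts in 6 samples, 0.027 with no filter, 0.0043 with total counts only, 0.025 without both samples numbered 3 and 0.0041 without hormone and mitochondrial genes, and lay between -0.13 and 0.15 with a library left out. For Irf8 at 4 weeks it became -0.24 in DESeq2, -0.20 in edgeR and -0.056 with the replicate block, with a range from -0.63 to 2.38 when a library was left out. For Stat6 at 4 weeks it became 0.0032 with quality weights and 0.0034 without both samples numbered 3, with a range from -0.20 to 0.017. The Irf7 interaction became 0.051 with quality weights, with a range from -0.44 to 0.016. Left-out ranges that crossed 0 were also -0.16 to 0.055 for Irf3 between fractions at 8 weeks and -0.23 to 0.054 for its interaction.

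The labels tie no replicate number to an animal or batch, and not every pair of same-numbered libraries deviated together with a correlation over 0.1, so the libraries were not treated as paired. These correlations lay between 0.08 and 0.306 for the fractions at 4 weeks (mean 0.173, beside -0.086 for different numbers), 0.008 and 0.049 at 8 weeks (0.025 beside -0.012), -0.006 and 0.034 for the β ages, and -0.005 and 0.124 for the non-β ages, and the 4-week β replicate 1 correlated best with the non-β replicate 2. With a replicate block, 4 of the 9 genes rose in β-cells (Irf9 was not called, adjusted p = 0.0709), and the other counts were unchanged, at 5, 5, 8 and 2. Over all genes the block moved the 4-week fraction calls from 7570 to 9158 and the interaction calls from 800 to 2080, DESeq2 to 1562, quality weights to 2384, removal of both samples numbered 3 to 1468, and a left-out library to as few as 455; β age calls went from 2799 to 5382 with quality weights and to as few as 1695 with a library left out. With only the compared groups fitted, Irf8 was below the filter in the β age and 4-week comparisons.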
